A study of Homo sapiens with 24 samples.

Results

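Transcripts of 8 genes of pericellular proteolysis and of the start of blood clotting were followed through activation of a MYC fusion protein: the urokinase plasminogen activator PLAU, its receptor PLAUR, the tissue plasminogen activator PLAT, the inhibitors SERPINB2 and SERPINE2, tissue factor (F3), and the inhibitors TFPI and TFPI2. They were taken by symbol from the 60668 rows of the gene count table. All 8 were among the 22158 genes with enough counts to be tested. The genes were chosen by their measured values, since TFPI2 and SERPINB2 were among the largest changes of an earlier description of these libraries. The changes in MYC-ER cells after 8 h, in parental cells after 24 h and in the difference between the lines after 8 h are therefore given as description, with no test. Comparisons that share libraries with these are not independent of the choice either.

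The cells were MCF-10A, an immortalised, non-transformed human mammary epithelial line, and MCF-10A carrying MYC-ER, in which the MYC transcription factor is joined to a hormone-binding part of the oestrogen receptor and becomes active when 4-hydroxytamoxifen (4-OHT) binds it. Both lines were grown in 3D on growth factor reduced Matrigel and received 1 µM 4-OHT for 48, 24, 8 or 0 h. The first treatment was on day 3, and every culture was collected on day 5. The 8 groups, MYC-ER and parental (without the fusion) at 0, 8, 24 and 48 h, had 3 replicates each, which gave 24 poly(A)-selected RNA-seq libraries. The labels do not say whether the replicates were separate cultures or whether the MYC-ER line is 1 clone, so p-values measure the spread between these libraries, which may be technical.

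Library totals ran from 136860029 to 182438505 counts, and 23 of 24 libraries were most similar to another library of their own group. Mammary epithelial markers were present throughout, with 10 of 10 genes at 1 CPM or more in every group, but their levels differed between groups. Summed endothelial markers stayed at 1.13 to 7.68 CPM, against sums of 10433.5 to 30696.0 CPM for the epithelial list. CPM is a gene's count as a share of its library's TMM-scaled total, and group values are mean ± SD with n = 3. In bulk RNA, fewer cells that express a gene and less RNA per cell cannot be told apart.

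Plasminogen activators cut the zymogen plasminogen into plasmin, a protease that degrades fibrin and matrix proteins and activates other proteases. Urokinase does this at the cell surface, held by PLAUR, and serpins such as SERPINB2 and protease nexin-1 (SERPINE2) block the activators. Tissue factor is the membrane receptor for factor VII and starts coagulation outside the vessel, TFPI blocks the tissue factor complex and factor Xa, and TFPI2 is a matrix-associated Kunitz inhibitor that acts strongly on plasmin. Keratinocytes and breast epithelial cells make several of these proteins themselves.

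Upstream sequence is shown for the 5 genes whose window before the transcription start held a searched motif. RefSeq windows of GRCh38.p14 were found for 7 of the 8 genes, PLAT having none, and 250 bases before each annotated start were searched on both strands for TGANTCA, which includes the binding core of AP-1 factors, and for CACGTG, the E-box bound by MYC and its partner MAX. TGANTCA was present in 4 of the 9 windows of these 7 genes (F3, PLAUR, SERPINB2 and TFPI2). It was present in 6.57% of 35116 windows of all genes. CACGTG was present in 1 of the 9, before SERPINE2, and in 6.34% of all windows. The motifs do not overlap each other here, PLAU and TFPI held neither, and a match is a description of letters, not a bound site. Capitals mark the motif, and parts of windows that an annotation places in exons were left out, or only the site is shown where, as in PLAUR and TFPI2, most of the window lies in exons of other annotated transcripts. The matches began 223 and 210 bases before the start of F3, 186 before PLAUR, 102 before SERPINB2, 87 before TFPI2 and 87 before 1 of the 2 annotated starts of SERPINE2. That start, like the others searched, lies within its gene's annotated span, and the window before the other SERPINE2 start, nearer the gene's 5′ end, held no match. The SERPINB2 window (63887455 to 63887704) lies inside a gene that begins at 63871692, and the sequence before that outer end was not searched.
F3, chr1:94541801-94542009, minus strand: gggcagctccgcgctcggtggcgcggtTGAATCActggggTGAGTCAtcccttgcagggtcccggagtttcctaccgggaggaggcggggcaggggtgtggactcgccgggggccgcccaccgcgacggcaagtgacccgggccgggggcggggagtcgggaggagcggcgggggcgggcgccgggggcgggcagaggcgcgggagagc
PLAUR, chr19:43670338-43670366, minus strand: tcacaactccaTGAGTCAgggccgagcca
SERPINB2, chr18:63887455-63887699, plus strand: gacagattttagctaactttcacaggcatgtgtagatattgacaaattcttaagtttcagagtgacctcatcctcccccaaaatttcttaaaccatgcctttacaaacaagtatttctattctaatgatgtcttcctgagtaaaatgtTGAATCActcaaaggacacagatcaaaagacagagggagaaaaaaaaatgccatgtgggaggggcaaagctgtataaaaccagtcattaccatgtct
TFPI2, chr7:93890823-93890851, minus strand: gtccccgtgcaTGAATCAgccacccctca
SERPINE2, chr2:224031479-224031728, minus strand: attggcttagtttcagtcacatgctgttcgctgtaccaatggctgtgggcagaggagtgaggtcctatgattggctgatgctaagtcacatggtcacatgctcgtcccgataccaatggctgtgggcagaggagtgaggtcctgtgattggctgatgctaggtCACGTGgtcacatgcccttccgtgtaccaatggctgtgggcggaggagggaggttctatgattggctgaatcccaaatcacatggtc

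In cells without the fusion, before 4-OHT, PLAT and PLAU led the set per length of transcript, at 36.6 ± 0.78 and 18.1 ± 1.03 CPM per kb, followed by F3 at 15.1 ± 0.81, and SERPINB2 was lowest at 0.52 ± 0.12. MYC-ER cells at 0 h were different. There TFPI (9.37 ± 0.28 CPM per kb) and PLAT (9.10 ± 0.11) led, with overlapping libraries, while TFPI2 stood at 0.011 ± 0.0013.

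The untreated lines were then compared directly. Both 0 h groups are also the baseline of changes used to choose the genes, so this comparison is not independent of the choice. Of the 8 genes, 7 were lower and 1, TFPI, was higher in MYC-ER than in parental cells at 0 h (edgeR quasi-likelihood test, Benjamini-Hochberg adjusted over all genes tested), where 32.7% of all genes tested were lower and 31.6% higher. Their median log2 difference was -2.03, against 0.000 for all genes. TFPI2 had 4 to 5 counts in each MYC-ER library and 460 to 589 in each parental library, a log2 difference of -6.81 ± 0.23 (SE, adjusted p = 1.46e-16). SERPINE2 was at 1.33, 1.38 and 1.65 CPM in the MYC-ER libraries against 19.1, 19.7 and 20.2 in the parental ones, a log2 difference of -3.76 ± 0.087 (SE, adjusted p = 2.30e-19). F3 was lower by a log2 difference of -3.06 ± 0.11, PLAU by -2.05 ± 0.077, PLAT by -2.01 ± 0.043 and PLAUR by -1.84 ± 0.098. SERPINB2 had the smallest difference of the 7, -1.43 ± 0.24 (adjusted p = 1.64e-05). TFPI went the other way, at 35.3 to 37.4 CPM in MYC-ER and 17.8 to 22.0 in parental libraries, a log2 difference of 0.91 ± 0.077 (adjusted p = 8.06e-10), which was 0.58 with each library's GC trend removed. So, before any 4-OHT, the lines already differed in every gene of the set. Epithelial markers summed to 14863.0 to 15369.6 CPM in MYC-ER at 0 h and 24423.2 to 30696.0 in parental cells at 0 h. Means were 625.8 against 9724.5 CPM for KRT14, 323.1 against 2142.9 for KRT17 and 350.4 against 1279.2 for SFN. TP63 (141.0 against 108.1) and CDH3 (436.4 against 377.4) went the other way. Summed fibroblast markers also differed between these groups, at 369.9 to 377.2 CPM in MYC-ER at 0 h, 125.0 to 140.1 in parental cells at 0 h and 80.9 to 132 in the other groups. They came mainly from COL1A1 and DCN, with 4 of the 10 markers at 0 counts in MYC-ER at 0 h. FAP went the other way, with a mean of 0.34 ± 0.079 CPM against 7.15 ± 0.54 in the parental line at 0 h, and PDGFRB stood at 0.77 ± 0.10 and 0.95 ± 0.20. Leukocyte markers summed to 45.1 to 48.8 CPM there, mostly CSF1R, with 5 of 10 at 0, and to 18.8 to 41.5 elsewhere. Their part in the differences was not tested.

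**Figure D1:**
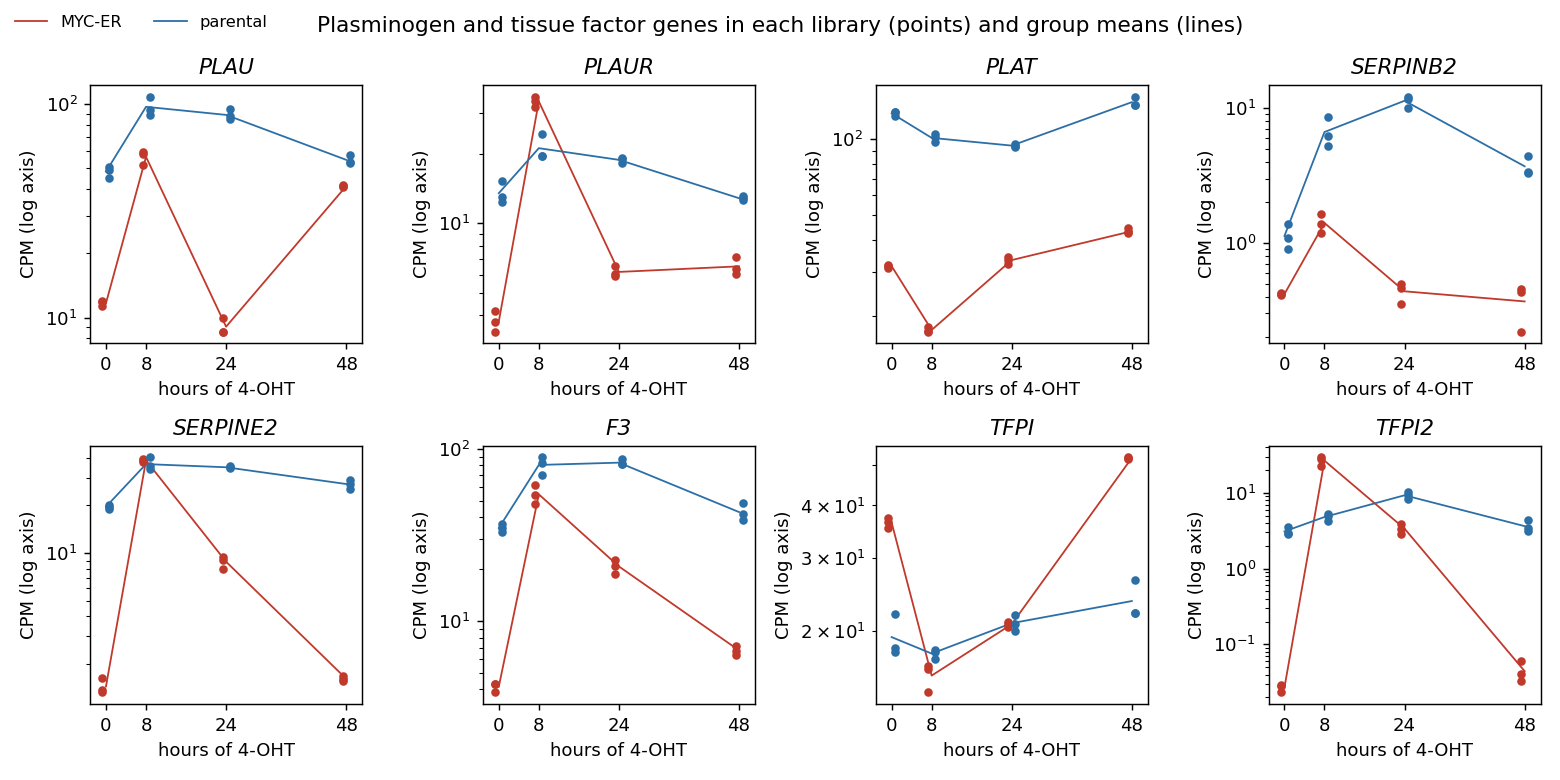
CPM of the 8 genes (log axis, scale differs by panel) against hours of 4-OHT; each point is 1 library and lines join the means of 3. TFPI2 in MYC-ER cells went from 0.027 CPM at 0 h to 26.5 after 8 h and 0.044 after 48 h, while parental TFPI2 stayed between 2.82 and 10.3.

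Among the activators and their receptor, PLAU moved up, down and up again in MYC-ER cells. Its libraries read 11.9, 11.3 and 11.9 CPM at 0 h, 59.9, 51.8 and 58.0 after 8 h, 10, 8.58 and 8.60 after 24 h, and 41.6, 40.7 and 41.5 after 48 h. The 4 groups did not overlap, and the 24 h group lay below the starting level. The SE follows each log2 change below. Against 0 h the log2 change was 2.28 ± 0.077 (SE) after 8 h, -0.37 ± 0.076 (adjusted p = 2.57e-04) after 24 h and 1.82 ± 0.076 (adjusted p = 1.91e-14) after 48 h. From 24 h to 48 h it rose by 2.19 ± 0.078 (adjusted p = 1.34e-15). Parental PLAU had no such dip: the libraries read 49.0, 45.2 and 50.5 CPM at 0 h, 93.9, 88.9 and 108 after 8 h, 84.9, 94.4 and 87.4 after 24 h and 52.8, 57.9 and 53.6 after 48 h. It rose after 8 h by 1.01 ± 0.074 (log2, adjusted p = 1.21e-08) and was still 0.88 ± 0.073 above 0 h after 24 h. The 48 h value of 0.18 ± 0.073 sat at the threshold (adjusted p = 0.0498), and 17 of the 24 fits that leave out 1 library lost it, with adjusted p up to 0.196. It was 0.33 (adjusted p = 5.97e-04) with the GC trend removed and 0.39 (adjusted p = 1.45e-04) with GC and length trends removed.

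PLAUR, the anchor of urokinase, followed a simpler course. In MYC-ER libraries it read 4.17, 3.40 and 3.74 CPM at 0 h, 33.8, 31.8 and 35.3 after 8 h, 6.03, 6.57 and 5.91 after 24 h and 6.05, 6.33 and 7.19 after 48 h. The 8 h group stood above all others, parental groups included, and the 24 h and 48 h groups overlapped, with a log2 change between them of 0.080 ± 0.096 (adjusted p = 0.507). Against 0 h the log2 change was 3.16 ± 0.10 after 8 h, 0.71 ± 0.097 (adjusted p = 1.49e-06) after 24 h and 0.79 ± 0.097 (adjusted p = 7.35e-07) after 48 h. Parental PLAUR read 12.95, 12.4 and 15.2 CPM at 0 h, 19.5, 19.5 and 24.4 after 8 h, 18.3, 19.2 and 19.0 after 24 h and 13.1, 12.6 and 12.8 after 48 h, so the last group lay within the range of the first. It rose by 0.65 ± 0.094 (adjusted p = 4.08e-05) after 8 h, stood at 0.48 ± 0.094 after 24 h (0.87 with GC and length trends removed) and did not pass the test after 48 h (-0.07 ± 0.094, adjusted p = 0.601). With GC and length trends removed the 48 h value was 0.32 and passed (adjusted p = 0.00548).

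PLAT, the other activator, ran opposite to PLAU after 8 h. MYC-ER libraries read 31.1, 31.8 and 31.7 CPM at 0 h, 17.3, 17.4 and 18.2 after 8 h, 33.4, 34.4 and 32.1 after 24 h, and 44.4, 42.7 and 42.9 after 48 h. The 8 h group lay below every other group of either line. The log2 change from 0 h was -0.84 ± 0.042 after 8 h, 0.08 ± 0.042 (adjusted p = 0.106) after 24 h and 0.46 ± 0.042 (adjusted p = 8.29e-09) after 48 h; the 24 h value passed with library size alone (0.20, adjusted p = 2.02e-04) and with DESeq2 (0.11, adjusted p = 0.0224). Parental PLAT fell as well, from 124 to 128 CPM at 0 h to 97.3 to 105 after 8 h, a log2 change of -0.32 ± 0.041 (adjusted p = 1.03e-05). After 24 h it stood at -0.42 ± 0.041. After 48 h it was 0.15 ± 0.041 above 0 h (adjusted p = 0.00670), which was lost once the GC trend was removed (0.049, adjusted p = 0.400). The ratio of PLAU to PLAT per kb in the same library was 0.48 ± 0.019 in MYC-ER at 0 h, 4.18 ± 0.31 after 8 h, 0.35 ± 0.033 after 24 h and 1.24 ± 0.021 after 48 h. In parental cells it was 0.50 ± 0.019, 1.25 ± 0.18, 1.23 ± 0.065 and 0.51 ± 0.039. At 0 h the ranges of this ratio overlapped between the lines.

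The inhibitors differed among themselves. SERPINE2, which inhibits thrombin and urokinase, changed more than SERPINB2 in MYC-ER cells and read 1.33, 1.38 and 1.65 CPM at 0 h, 39.3, 38.4 and 37.6 after 8 h, 9.48, 9.07 and 7.99 after 24 h and 1.56, 1.61 and 1.69 after 48 h. After 8 h its range overlapped that of parental SERPINE2 after 8 h, and after 48 h it overlapped its own start. The log2 change from 0 h was 4.73 ± 0.090 after 8 h, 2.61 ± 0.085 (adjusted p = 6.78e-17) after 24 h and 0.16 ± 0.088 (adjusted p = 0.153) after 48 h. The 48 h value passed without MYC-ER 0 h replicate 3 (0.26, adjusted p = 0.0272), with library size alone (0.32, adjusted p = 0.00225) and with the replicate block and the GC trend removed (0.24, adjusted p = 0.0472). From 24 to 48 h it fell by 2.45 ± 0.084 on the log2 scale (adjusted p = 8.37e-16). Parental SERPINE2 went from 19.1 to 20.2 CPM at 0 h to 33.9 to 40.1 after 8 h, a log2 change of 0.89 ± 0.075 (adjusted p = 7.38e-08), and was 0.83 ± 0.075 above 0 h after 24 h and 0.48 ± 0.075 (adjusted p = 5.28e-05) after 48 h. With the GC trend removed the 24 h value was 0.54 and the 48 h value 0.21 (adjusted p = 0.0602). With GC and length trends removed they were 0.38 and 0.038 (adjusted p = 0.830 for 48 h).

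SERPINB2, an inhibitor of urokinase known mainly from monocytes and epithelia, rose in the parental line and stayed low in MYC-ER cells. Its parental libraries read 1.08, 1.39 and 0.904 CPM at 0 h, 6.18, 5.21 and 8.61 after 8 h, 11.8, 12.2 and 10.1 after 24 h and 3.29, 4.45 and 3.38 after 48 h. No 2 of these groups overlapped. The log2 change was 2.56 ± 0.23 (adjusted p = 1.52e-07) after 8 h, 3.33 ± 0.23 after 24 h and 1.72 ± 0.22 (adjusted p = 1.20e-05) after 48 h. In MYC-ER cells the level was low throughout, with 38 to 80 counts per library at 0, 24 and 48 h and 168 to 228 after 8 h. The 8 h libraries, at 1.65, 1.19 and 1.38 CPM, stood above the other MYC-ER libraries and overlapped parental SERPINB2 at 0 h. The MYC-ER change was 1.75 ± 0.24 after 8 h, 0.07 ± 0.24 (adjusted p = 0.828) after 24 h and -0.19 ± 0.25 (adjusted p = 0.587) after 48 h, and the last is 0.083 without MYC-ER 48 h replicate 1, the lowest library.

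F3, the trigger of coagulation, read 4.30, 4.31 and 3.84 CPM in MYC-ER libraries at 0 h, 53.7, 47.6 and 61.7 after 8 h, 22.7, 20.7 and 18.7 after 24 h and 6.36, 6.67 and 7.19 after 48 h. The 4 groups did not overlap, and the 8 h group overlapped parental F3 after 48 h. The log2 change was 3.71 ± 0.11 after 8 h, 2.32 ± 0.11 (adjusted p = 2.97e-14) after 24 h and 0.70 ± 0.11 (adjusted p = 1.27e-05) after 48 h. In parental cells F3 read 36.6, 34.5 and 32.9 CPM at 0 h, 82.5, 70.0 and 89.0 after 8 h, 81.2, 81.3 and 86.6 after 24 h and 38.8, 48.1 and 41.8 after 48 h. It rose by 1.22 ± 0.10 (adjusted p = 5.01e-08) after 8 h and stood at 1.26 ± 0.10 after 24 h. The 48 h change of 0.31 ± 0.099 (adjusted p = 0.0158) was lost without parental 48 h replicate 2 (adjusted p = 0.118) and once the GC trend was removed (0.15, adjusted p = 0.292).

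The 2 inhibitors named for tissue factor moved apart. TFPI read 35.3, 37.4 and 36.6 CPM in MYC-ER libraries at 0 h, 16.2, 16.5 and 14.3 after 8 h, 21.0, 20.5 and 20.9 after 24 h and 52.1, 51.8 and 52.1 after 48 h, a fall followed by a rise above the start. Its log2 change was -1.22 ± 0.077 after 8 h, -0.81 ± 0.076 (adjusted p = 5.30e-09) after 24 h and 0.51 ± 0.076 (adjusted p = 8.24e-06) after 48 h. From 24 h to 48 h it rose by 1.32 ± 0.077 (adjusted p = 3.51e-12). Parental TFPI stayed between 17.1 and 26.6 CPM over all 12 libraries. Its changes were -0.13 ± 0.076 (adjusted p = 0.213) after 8 h, 0.11 ± 0.076 after 24 h and 0.29 ± 0.076 (adjusted p = 0.00443) after 48 h. The parental directions after 24 h and 48 h rest on the handling of GC content. Once the GC trend was removed the values were -0.37 after 24 h and -0.22 (adjusted p = 0.00627) after 48 h. The 8 h value kept its direction and then passed the threshold (-0.48, adjusted p = 5.07e-06). TFPI is the most AT-rich transcript of the set, with 35.1% GC.

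TFPI2 had the widest range. Its MYC-ER libraries held 4 to 5 counts each at 0 h, 3391 to 4049 after 8 h, 453 to 608 after 24 h and 5 to 10 after 48 h, which is 0.027 ± 0.0032, 26.5 ± 3.5, 3.37 ± 0.47 and 0.044 ± 0.014 CPM. The 8 h group stood above every parental group, and the 0 and 48 h groups lay below all of them. The log2 change was 9.90 ± 0.23 after 8 h, with 9.81 to 10.01 when each library was left out, and 6.93 ± 0.23 (adjusted p = 9.14e-17) after 24 h. After 48 h it was 0.71 ± 0.38 (adjusted p = 0.224), and from 24 h to 48 h it fell by 6.21 ± 0.22 on the log2 scale (adjusted p = 9.07e-16). Folds against 0 h rest on 4 to 5 counts per library, and the fall to 48 h rests on 5 to 10. Parental TFPI2 read 2.82, 2.96 and 3.50 CPM at 0 h, 4.22, 5.19 and 4.97 after 8 h, 9.27, 8.23 and 10.3 after 24 h and 3.10, 4.32 and 3.47 after 48 h. The parental 8 h rise of 0.63 ± 0.14 (adjusted p = 0.00178) was lost once the GC trend was removed (0.40, adjusted p = 0.0653). After 24 h the change was 1.58 ± 0.14, and after 48 h 0.23 ± 0.14 (adjusted p = 0.210). Per kb, the TFPI2 to TFPI ratio in MYC-ER libraries went from 0.0012 ± 0.00011 at 0 h to 2.69 ± 0.17 after 8 h, 0.26 ± 0.038 after 24 h and 0.0014 ± 0.00041 after 48 h. The ratio of F3 to TFPI went from 0.19 ± 0.015 to 5.96 ± 1.25, 1.69 ± 0.16 and 0.22 ± 0.013, and in parental cells it was 3.07 ± 0.41, 7.75 ± 1.08, 6.76 ± 0.54 and 3.12 ± 0.61.

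**Figure D2:**
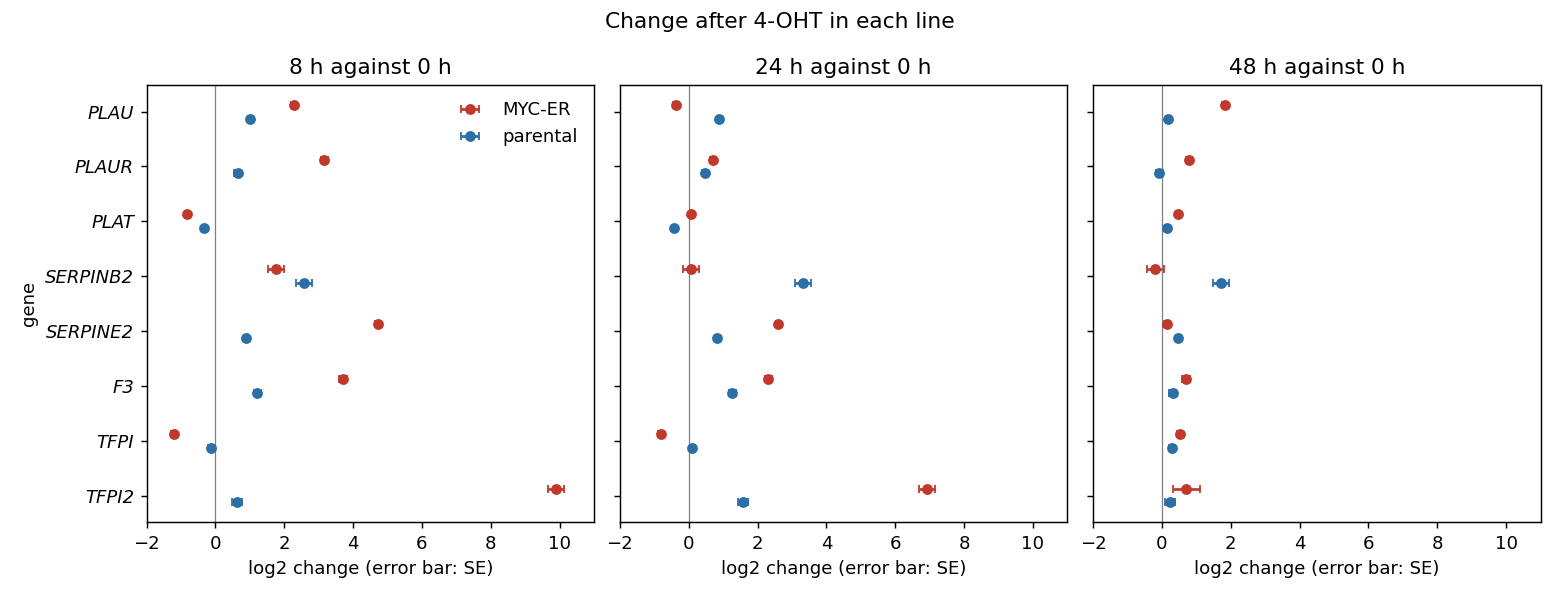
Log2 change from 0 h (points) with its standard error (bars) for each gene at 8, 24 and 48 h in the MYC-ER and parental lines. TFPI2 in MYC-ER cells is the point farthest right after 8 h (9.90) and 24 h (6.93), and SERPINB2 lies farther right in the parental line at each time.

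Counted by direction, the 8 genes split as follows. In MYC-ER cells after 8 h, a comparison used to choose them, 6 log2 changes were above 0 and 2 below. These counts follow the choice and are no test. Of all genes tested, 32.2% and 35.4% passed the threshold in those directions. After 24 h 4 were higher and 2 lower past the threshold, against 30.4% and 31.2% of all genes. After 48 h 5 were higher and 0 lower, against 23.4% and 20.7%, and the genes not past the threshold were SERPINB2, SERPINE2 and TFPI2. From 8 to 24 h in MYC-ER cells 2 were higher, PLAT and TFPI, and 6 lower, where 28.4% and 27.1% of all genes were; this comparison shares the 8 h libraries with the choice. Those changes were -2.98 ± 0.15 for TFPI2, -2.64 ± 0.079 for PLAU, -2.45 ± 0.099 for PLAUR, -2.12 ± 0.078 for SERPINE2, -1.68 ± 0.24 for SERPINB2 and -1.39 ± 0.10 for F3, and 0.92 ± 0.043 for PLAT and 0.41 ± 0.077 for TFPI. From 24 to 48 h 3 were higher (PLAU, PLAT and TFPI) and 3 lower (SERPINE2, F3 and TFPI2), against 28.2% and 25.5%. The median log2 change of the 8 genes was 2.72 after 8 h, 0.40 after 24 h and 0.61 after 48 h, and that of all genes was -0.10, -0.02 and 0.03.

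In parental cells 6 were higher and 1, PLAT, lower after 8 h, where 15.0% and 16.0% of all genes were. The 24 h comparison was also used in the choice, so its counts, again 6 and 1, are a description and no test. Of all genes, 21.2% and 21.7% passed the threshold in those directions. After 48 h 6 were higher and 0 lower, against 20.4% and 20.1%, and the count was 3 once the GC trend was removed, TFPI then being lower, and 2 with only the groups compared in the fit. The medians were 0.77, 0.85 and 0.26 at the 3 times, and those of all genes lay between -0.03 and 0.00. Across 9784 genes, parental changes tracked GC content (Spearman's rho -0.63 after 8 h, -0.67 after 24 h and -0.67 after 48 h, genes not being independent), whereas MYC-ER changes had rho of 0.017, -0.061 and 0.030. Parental changes also tracked transcript length (rho 0.40, 0.57 and 0.61), and MYC-ER changes had rho of -0.10, -0.12 and -0.10. The difference between the untreated lines had rho of -0.26 with GC content and 0.38 with length. For the change in MYC-ER minus that in parental cells, rho with GC content was 0.24, 0.26 and 0.47. With length it was -0.25, -0.39 and -0.48. The part of GC content and length in these changes was not tested beyond the values given.

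The change in MYC-ER cells was set against the change in parental cells as the line by time interaction, which was tested for 24 h and 48 h. The 24 h difference contains the parental 24 h change used in the choice, and both differences use the same 0 h libraries as the choice. Their p-values are therefore not independent of the choice. The 8 h differences were used in the choice and are a description: 5 genes had a higher and 3 a lower change in MYC-ER cells, and 27.3% and 27.8% of all genes tested passed the threshold in those directions. The differences were 9.27 ± 0.27 for TFPI2, 3.84 ± 0.11 for SERPINE2, 2.51 ± 0.14 for PLAUR, 2.49 ± 0.14 for F3 and 1.27 ± 0.10 for PLAU. They were -1.09 ± 0.11 for TFPI, -0.81 ± 0.32 for SERPINB2 and -0.52 ± 0.059 for PLAT. Leaving out each library gave -0.99 to -0.58 for SERPINB2, the smallest in size without parental 8 h replicate 3. The SERPINB2 value was -0.65 with the GC trend removed, -0.65 with the replicate block as well and -0.81 without a count filter. After 24 h, 4 were higher and 3 lower, against 27.7% and 26.8%, and after 48 h 4 were higher and 2 lower, against 23.6% and 21.4%. TFPI2 after 24 h rose more in MYC-ER cells by a log2 difference of 5.34 ± 0.28 (adjusted p = 7.27e-13), SERPINE2 by 1.78 ± 0.11 (adjusted p = 1.24e-11) and F3 by 1.06 ± 0.14 (adjusted p = 1.76e-06). SERPINB2 rose in the parental line and did not pass the test in MYC-ER cells at these times, and the difference was -3.27 ± 0.33 (adjusted p = 2.77e-08) after 24 h and -1.90 ± 0.33 (adjusted p = 7.96e-05) after 48 h. The PLAU difference passed in opposite directions, at -1.25 ± 0.11 (adjusted p = 1.59e-09) after 24 h and 1.64 ± 0.10 (adjusted p = 5.12e-11) after 48 h. PLAT had a difference of 0.50 ± 0.059 (adjusted p = 2.17e-07) after 24 h and 0.31 ± 0.059 (adjusted p = 1.75e-04) after 48 h. TFPI was -0.92 ± 0.11 (adjusted p = 2.36e-07) after 24 h, or -0.51 once the GC trend was removed, and 0.23 ± 0.11 (adjusted p = 0.0928) after 48 h. The 48 h TFPI value was 0.76 (adjusted p = 1.81e-07) with the GC trend removed and 0.83 (adjusted p = 1.98e-07) with GC and length trends removed. It also passed with library size alone (0.33, adjusted p = 0.0411), with upper-quartile scaling (0.31, adjusted p = 0.0221) and when replicate 1 of the parental 0 h group (0.28, adjusted p = 0.0449) or of the parental 48 h group (0.32, adjusted p = 0.0139) was left out. PLAUR was 0.23 ± 0.13 (adjusted p = 0.157) and then 0.86 ± 0.14 (adjusted p = 2.42e-05), the latter being 0.42 with GC and length trends removed. F3 after 48 h was 0.39 ± 0.14 (adjusted p = 0.0324) and SERPINE2 -0.32 ± 0.12 (adjusted p = 0.0305), and leaving out 1 library lost the F3 call in 6 and the SERPINE2 call in 5 of 24 fits. Once the GC trend was removed the F3 value was 0.61 (adjusted p = 0.00218) and the SERPINE2 value 0.029 (adjusted p = 0.890). TFPI2 did not pass after 48 h (0.48 ± 0.40, adjusted p = 0.422).

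Of 28 other plasminogen system genes 21 were tested, and 11 were higher and 6 lower in MYC-ER after 8 h, where 32.2% and 35.4% of all genes tested were, with a median log2 change of 0.16 against -0.10 for all genes. S100A10, a plasminogen-binding partner of annexin A2, was at 80.4 ± 3.67 CPM at 0 h and 623.8 ± 30.3 after 8 h in MYC-ER cells, a rise of 2.96 ± 0.094, and MRC2, a collagen receptor that associates with PLAUR, rose by 1.89 ± 0.12. SERPINA5, an inhibitor of activated protein C and urokinase, fell by 2.89 ± 0.15 on the log2 scale. Plasminogen itself (PLG) had 0 to 3 counts per library, and F7 had 0 counts in all 24, which allows up to 3 counts per library.

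Among 31 other coagulation genes 18 were tested, with 8 higher and 6 lower in MYC-ER cells after 8 h, against the same 32.2% and 35.4% of all genes, and a median of -0.07. THBD, thrombomodulin, a receptor for thrombin, rose by 2.13 ± 0.071 after 8 h and after 24 h fell by 0.45 ± 0.069 on the log2 scale against 0 h. F2R, the thrombin receptor PAR1, fell by 1.93 ± 0.10 after 8 h and rose by 1.66 ± 0.096 after 48 h, and PROCR, the protein C receptor, rose by 1.85 ± 0.080 after 8 h. Of 12 other clade B serpins, intracellular relatives of SERPINB2, 8 were tested, and 6 were higher and 2 lower in MYC-ER after 8 h, against those shares, with a median of 1.45. SERPINB13 fell by 3.57 ± 0.15 on the log2 scale and SERPINB1 rose by 2.19 ± 0.078, while SERPINB5 (maspin) rose by 1.80 ± 0.056. After 24 h the clade B counts were 2 higher and 4 lower, where 30.4% and 31.2% of all genes were. In parental cells after 8 h they were 6 and 0, where 15.0% and 16.0% of all genes were.

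**Figure D3:**
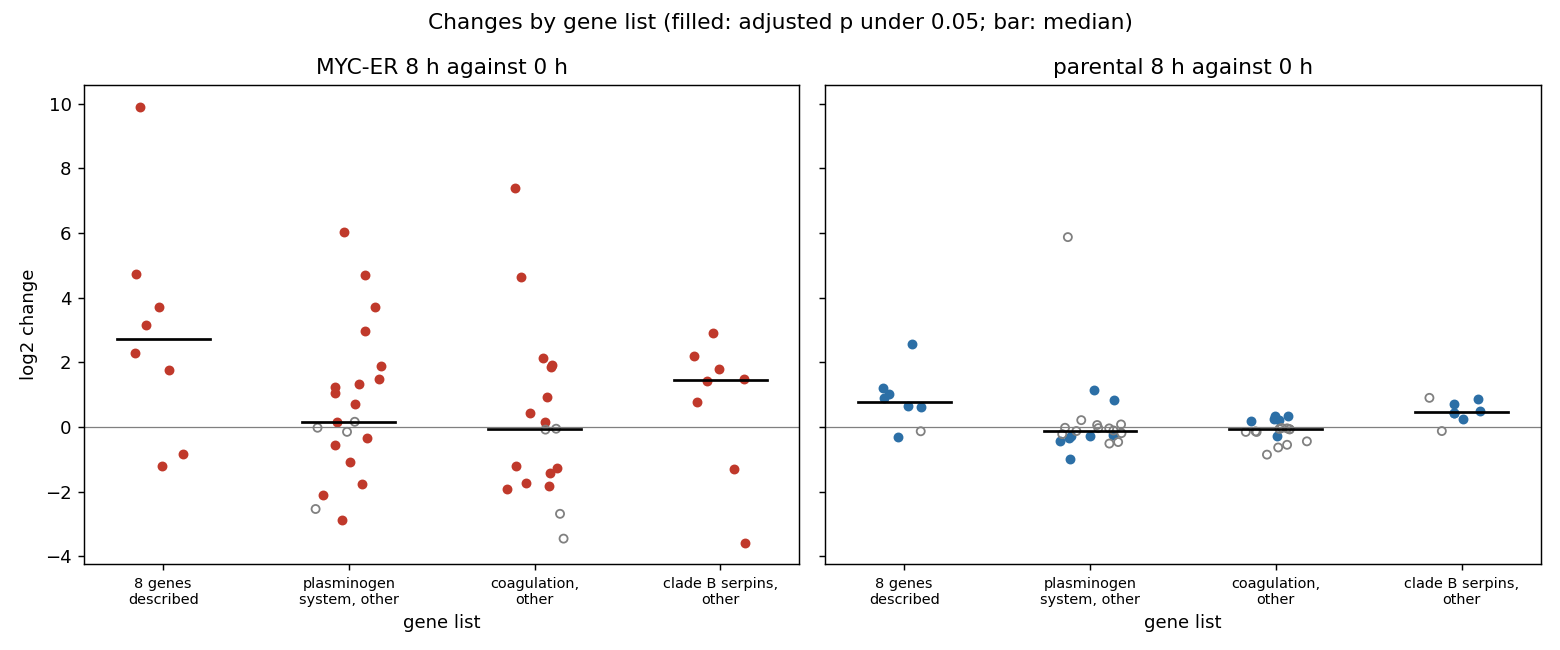
Log2 change after 8 h in MYC-ER (left) and parental (right) cells for the 8 genes and 3 lists of related genes; filled points passed the threshold and the bar is the list median. The median of the 8 genes is 2.72 in MYC-ER and 0.77 in parental cells, and that of the other plasminogen genes 0.16 and -0.12. The 8 genes were chosen with the MYC-ER 8 h changes in view, so their medians are no test against the lists.

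Profiles over the 8 group means, centred per gene, were compared by root mean square difference of log2 CPM as a description over 8 groups that share libraries. The closest pair within the set was SERPINE2 and F3 (0.47), then PLAU and PLAUR (0.69). Among 10640 genes, the most similar profiles were PANX1 (0.22) and ARHGEF2 (0.24) for PLAUR, MYOSLID (0.22) and TUBB2A (0.35) for F3, and RPSAP52 (0.35) and TNFRSF12A (0.42) for SERPINE2. For TFPI2 they were MMP10 (0.57) and LUCAT1 (0.71), for TFPI DUSP10 (0.13) and CLK4 (0.14), for PLAU ENC1 (0.32) and KRT17 (0.36), and for PLAT ABCA10 (0.22) and SPINK5 (0.25). The nearest genes to SERPINB2, SH3TC2 (0.86) and EREG (0.89), were the least close of these by this measure. The measure is not scaled to how widely a profile varies. The root mean square of the centred profile was 0.54 for TFPI, 1.78 for SERPINB2 and 3.17 for TFPI2.

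**Figure D4:**
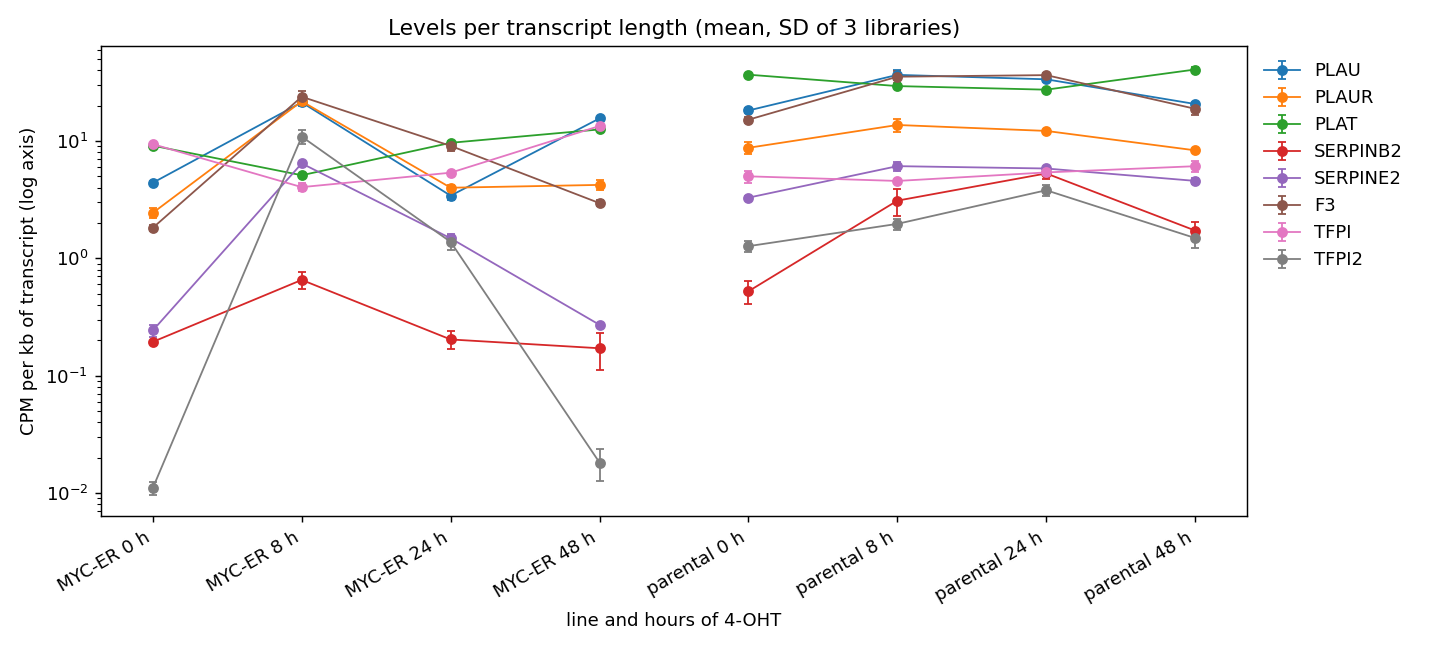
CPM per kb of transcript (log axis, mean and SD of 3 libraries) of the 8 genes in each group. PLAT leads in parental cells at 0 h at 36.6, and F3, PLAUR and PLAU lead at MYC-ER 8 h at 23.8, 21.7 and 21.3.

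Gene positions refer to GRCh38 (GENCODE 29). PLAU spans bases 73909177 to 73917497 of chromosome 10 on the plus strand and shares 916 exon bases with the antisense gene C10orf55, which stayed at or under 1.61 CPM in every library. F3 spans 94529225 to 94541800 of chromosome 1 on the minus strand, TFPI2 93885396 to 93890991 of chromosome 7 on the minus strand, and TFPI 187464230 to 187565760 of chromosome 2 on the minus strand. SERPINB2 spans 63871692 to 63903890 of chromosome 18 on the plus strand and shares 547 exon bases with SERPINB10, which had at most 14 counts in a library. PLAUR spans 43646095 to 43670547 of chromosome 19 and SERPINE2 223975112 to 224039319 of chromosome 2, both on the minus strand. The sources used here do not say whether counting used strand, so reads of these genes and their overlapping neighbours cannot be told apart. The neighbours of TFPI and TFPI2 on the other strand, AC007319.1, AC002076.1 and GNGT1, had at most 40, 5 and 0 counts in a library. In the table the identifiers are ENSG00000122861.16 (PLAU), ENSG00000011422.12 (PLAUR), ENSG00000104368.18 (PLAT), ENSG00000197632.9 (SERPINB2), ENSG00000135919.13 (SERPINE2), ENSG00000117525.14 (F3), ENSG00000003436.16 (TFPI) and ENSG00000105825.14 (TFPI2).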

How the data were processed

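RNA-seq counts per gene from 24 libraries (8 groups of 3, taken from the sample labels) were used. The deposited table holds estimated counts, expected counts written as whole numbers by the authors and not normalised; rounding changed none of them. Per the submitters' processing notes, Trimmomatic 0.39, STAR, StringTie 2.1.3b and GRCh38 were used, with no role or order stated. StringTie derives counts from coverage, so limits of 3 counts are approximate and, since PCR copies were not marked, cover counting error only. Libraries were prepared with a stranded kit and sequenced as 150-base pairs, 3 per lane, and which libraries shared a lane is not given in the sources used here.

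The 8 genes and the lists of related genes (28 other plasminogen system genes, 31 other coagulation genes, 12 other clade B serpins, and 10 markers each of mammary epithelial, endothelial, fibroblast and leukocyte cells) were chosen with earlier results of these data known. Genes passing edgeR's filterByExpr (22158) entered 1 model in edgeR 4.0.16, run in R 4.3.3, after TMM scaling. The model had 1 mean for each of the 8 groups and used the 24 libraries together. The 12 contrasts were tested with the two-sided quasi-likelihood F test, Benjamini-Hochberg adjusted over all genes within a contrast at 0.05. The SE of a log2 change is its size divided by the square root of F. CPM per kb divides CPM by the length of the principal transcript (GENCODE 29). The fit was tested on simulated data. Totals of 136860029 to 182438505 counts set the counting error alone. No replicate pair agreed within sampling noise (chi-square per degree of freedom 8.46 to 257.7 over 24 pairs).

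All 8 genes are named. Listed genes are named when a group mean reached 10 CPM and they were among the 4 largest changes of their list in a contrast. Some listed items are not reported here. PLG and F7 were named after their values were seen. The 2 most similar profiles per gene come from genes reaching 10 CPM. Log2 CPM used a prior count of 2. Alternatives were RLE, upper-quartile and unscaled library sizes, other count filters, DESeq2 1.42.0, a fit of only the groups compared, a replicate block, removal, library by library, of a lowess trend (span 0.3) against GC content, alone or together with transcript length, and leaving out each library.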

Additional observations from a re-analysis of the deposited data

Results flagged for a closer look

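The change after 4-OHT differed between the lines by the test of the line by time interaction (edgeR, adjusted over all genes, log2 change in MYC-ER minus log2 change in parental cells). The 24 h values contain the parental 24 h change used to choose the genes, and the 48 h values share the 0 h libraries with the choice. Neither test is independent of the choice. At 24 h the difference was 5.34 for TFPI2, 1.78 for SERPINE2, 1.06 for F3 and 0.50 for PLAT. It was -3.27 for SERPINB2, -1.25 for PLAU and -0.92 for TFPI, and the TFPI value was -0.51 with the GC trend removed and -0.43 with GC and length trends removed.

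At 48 h the difference was 1.64 for PLAU, 0.86 for PLAUR, 0.39 for F3 and 0.31 for PLAT, and -1.90 for SERPINB2 and -0.32 for SERPINE2. The PLAUR value was 0.42 with GC and length trends removed, and the PLAT value was then 0.49. The F3 difference (adjusted p = 0.0324) was lost in 6 of the 24 fits that leave out 1 library, with adjusted p up to 0.0909, and in the fit without a count filter (adjusted p = 0.0598), and was 0.61 (adjusted p = 0.00218) with the GC trend removed and 0.61 (adjusted p = 0.00327) with the replicate block as well. The SERPINE2 difference (adjusted p = 0.0305) was lost in 5 of the 24, with adjusted p up to 0.132, and was 0.029 with the GC trend removed.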

How the results depend on the processing

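Of 96 log2 changes (8 genes in 12 contrasts, those used in the choice included), 82 passed the threshold. Of these, 73 passed with the same sign under every alternative that gave a value. Over all alternatives, 3244 of 3347 values kept direction and side of the threshold, 62 fell short of it, 20 newly passed it and 21 changed sign. With the replicate block all 96 did the same; replicate numbers did not pair the libraries (correlation of deviations -0.078 to 0.094, and 10 of 24 libraries correlated best with their own number). A minimum of 10 counts in every library left TFPI2 untested.

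Weak parental changes moved with GC content. For the GC trend removed, GC and length trends removed, and replicate block with the GC trend removed, in that order, TFPI was -0.37, -0.42 and -0.37 at 24 h (0.11 in the fit reported) and -0.22, -0.26 and -0.22 at 48 h (0.29). At 48 h PLAUR was 0.15, 0.32 and 0.16 (-0.07) and TFPI2 -0.097, -0.014 and -0.10 (0.23). The SERPINE2 interaction at 48 h was 0.029, 0.25 and 0.028 (-0.32). Removing both trends gave SERPINB2 in MYC-ER at 24 h as -0.011 and the PLAUR interaction at 24 h as -0.21. Sign changes from 1 library were SERPINB2 in MYC-ER at 24 h (range -0.025 to 0.20 when each library was left out, the lowest without MYC-ER 24 h replicate 3), at 48 h (-0.37 to 0.083) and from 24 to 48 h (-0.43 to 0.015), both highest without MYC-ER 48 h replicate 1, and PLAUR in parental cells at 48 h (-0.13 to 0.056, the highest without parental 0 h replicate 3). None of these SERPINB2 and PLAUR values passed the threshold in the fit reported. The parental PLAUR value at 48 h passed, with its sign changed, once GC and length trends were removed (0.32, adjusted p = 0.00548).

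The 6 parental calls at 48 h became 3 with the GC trend removed and 2 with only the groups compared (4 to 6 when a library was left out). Among the other pathway genes, the 20 parental calls at 8 h became 12 with the GC trend removed, 12 with the replicate block as well, 6 with only the groups compared (over all genes tested the calls went from 6870 to 5443, 5362 and 1452), and 13 to 26 when a library was left out, the 13 without parental 0 h replicate 1 or 3. The 24 at 24 h became 14 and the 24 at 48 h became 11 with only the groups compared (over all genes 9503 became 4923 and 8978 became 3274). The SERPINB2 interaction at 8 h (-0.81), used in the choice and so a description, ran from -0.99 to -0.58 when a library was left out. With library size alone the median of all genes moved from 0.03 to 0.19 in MYC-ER at 48 h, and from 0.05 to 0.26 from 8 to 24 h, where the TFPI change was 0.61 in place of 0.41. The share of calls that were higher then went from 53.0% to 73.8% and from 51.2% to 67.8%, and from 52.6% to 63.5% for the interaction at 48 h. With upper-quartile scaling the median in MYC-ER at 8 h was -0.24 in place of -0.10. The cause of these shifts was not tested. The fit of only the groups compared had fewer libraries, and its count filter, scaling and spread were estimated anew from them.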
